A study of Mus musculus with 12 samples.

Results

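Mouse OP9 stromal cells under imatinib, labelled 64 h, were compared with OP9 cells under vehicle, labelled 0 h, across all genes that the arrays detected. The comparison takes 6 of the 12 arrays of the series, 3 imatinib 64 h arrays and 3 vehicle 0 h arrays, and covers 10211 genes. All the cells carry the same labels for strain (B6C3F1 op/op, mice with the op mutation of Csf1), source (newborn calvaria, the skull cap) and cell type (mesenchymal stem cells), and OP9 is 1 established line. The series holds imatinib arrays at 32 h and 96 h as well, 3 each, and its title concerns resistance to imatinib that such stromal cells bring about in BCR-ABL-positive lymphoblastic leukaemia. RNA was labelled with biotin and hybridised to Illumina BeadChips.

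Imatinib inhibits ABL and KIT, both PDGF receptors and the collagen receptors DDR1 and DDR2, all of them tyrosine kinases. Stromal cells of the marrow hold blood progenitors in place with CXCL12 and keep early B cells alive with IL-7, and OP9 cells are widely used as a feeder layer for lymphoid cells. They also form fat cells readily in culture, and they lack functional M-CSF because of the op mutation.

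The 64 h arrays carry array label 2 and the vehicle arrays array label 1, so array label and group cannot be told apart. No sample is labelled as vehicle at 64 h, so the drug and the time in culture cannot be told apart either. The design text of the series can be read as vehicle treatment for the same times as the drug, whereas the vehicle samples are labelled 0 h. Whether separate cultures lie behind the 3 samples of each group is not stated, and every p-value here reflects the spread among the samples, which may be technical. Median raw signals were 108 to 112 intensity units on the vehicle arrays and 104.7 to 107.5 at 64 h, and 16405 to 17332 probes per array were detected in these groups. Arrays of 1 group correlated at r = 0.988 to 0.991. Replicate 3 at 64 h and replicate 3 at 32 h stood apart from the other arrays at opposite ends of the third principal component (scores 20.2 and -20.35), which held 7.07% of the variance. Counts that moved by over 1.5 times without 64 h replicate 3 are given both ways beside the result.

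Of the 18 markers of mesenchymal stromal cells listed, 13 were measured, among them Pdgfra, Pdgfrb, Vcam1, Prrx1, Col1a1, Col1a2 and Vim. Thy1, Nt5e, Nes and Lepr did not pass the detection filter, a detection p under 0.05 on at least 3 of the 12 arrays. Lower at 64 h were the hyaluronan receptor gene Cd44 (a log2 change of -0.95 ± 0.11, where the error is the SE of the fit throughout), the intermediate filament gene Vim (-0.88 ± 0.12), the TGF-beta co-receptor gene Eng (-0.79 ± 0.19, detected on 1 of 3 arrays at 64 h) and S100a4 (-0.41 ± 0.12). The adhesion gene Alcam was higher (0.80 ± 0.14), and Pdgfra, Pdgfrb, Col1a1 and Vcam1 did not pass the test. Eng and S100a4 lost the call when 1 of several single arrays was left out (adjusted p up to 0.127). Several listed markers of other cells did not pass the detection filter. They included Ptprc, Pax5 and Cd79b of B cells, Itgam of myeloid cells, Cdh5 and Tie1 of endothelium, Myod1 of muscle and Epcam of epithelium. Others did pass: 2 of 13 B lymphoid, 6 of 12 myeloid, 2 of 11 endothelial, 4 of 10 muscle and 3 of 10 epithelial markers were measured. Among the measured markers of other cells, the lysozyme gene Lyz2 rose (1.47 ± 0.15), as did the skeletal actin gene Acta1 (1.10 ± 0.26, detected on 1 of 3 vehicle arrays). The summed intensity of the 6 measured myeloid markers was 224 to 261 on the vehicle arrays and 323 to 351 at 64 h. Without Lyz2 it was 175 to 187 and 157 to 171. None of the 2 B lymphoid, 2 endothelial, 3 epithelial and 3 erythroid markers measured passed the test, with the B lymphoid sum, of Ebf1 and Ms4a1, at 208 to 247 and 281 to 334. The summed intensity of the 13 stromal markers was 25570 to 26962 on the vehicle arrays and 20250 to 21868 at 64 h, and the part of these markers in the results was not tested.

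At 64 h, 646 genes were higher and 621 were lower than in vehicle, 6.33% and 6.08% of the genes tested (limma, Benjamini-Hochberg adjusted p under 0.05), or 12.4% in either direction. Without 64 h replicate 3 the counts were 501 and 469. Of these, 132 were at least 2-fold higher (1.29%) and 93 at least 2-fold lower (0.911%). Changes of 4-fold or more were rare: 17 genes upwards (0.166%) and 11 downwards (0.108%). The median change over all genes was 0.0017 on the log2 scale. In bulk RNA such as this, fewer cells of a type and less RNA per cell cannot be told apart. The arrays of the 2 groups did not overlap for 3294 genes (32.3%). The share called was 5.91% in the lowest of 4 equal bins by level and 13.9 to 15.2% in the other bins. The median SE was 0.178 in the lowest bin and 0.125 to 0.161 in the others, and its part in the lower share was not tested. With the arrays of each array label normalized on their own, 538 genes were higher and 776 lower, so that the higher calls made up 40.9% of all calls against 51% here. Of the 1267 genes called, 515 have another measured probe, and in 424 of them all other probes had the same sign. In 247 another probe was called the same way, and in 0 the opposite way.

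**Figure D1:**
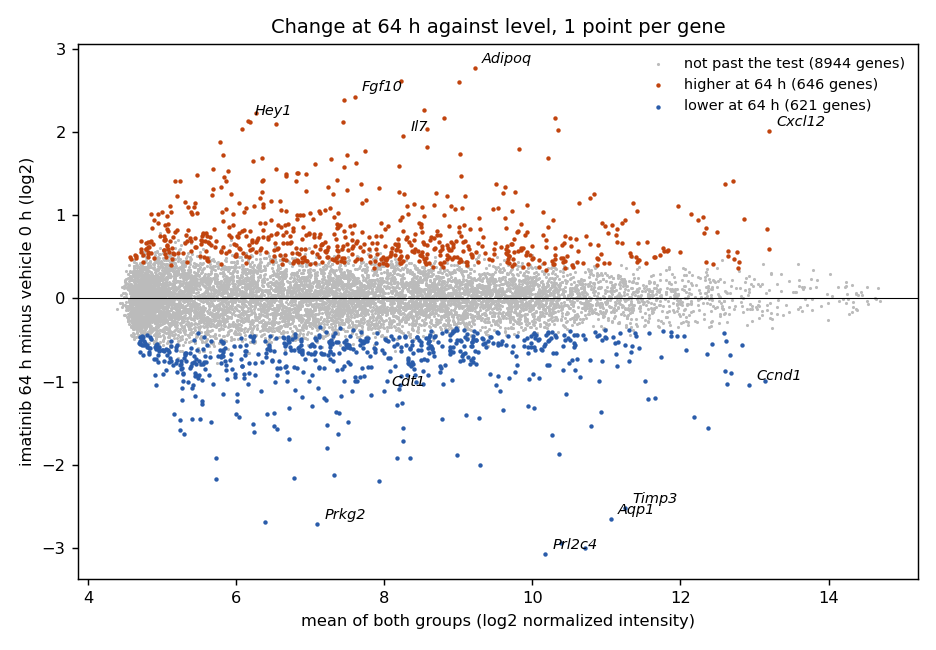
Each point is 1 gene, with the mean of both groups on the x axis and the 64 h minus vehicle difference on the y axis (both log2 intensity). The 646 higher and 621 lower genes lie on both sides of 0 at all levels, and the proliferin genes, Aqp1 and Timp3 form the lower edge.

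The gene with the largest increase was Adipoq, which encodes the fat cell hormone adiponectin. Its log2 intensities were 7.84, 7.90 and 7.77 on the vehicle arrays and 10.73, 10.49 and 10.60 at 64 h. The groups lay far apart, and the increase was 6.83-fold (2.77 ± 0.11, adjusted p = 1.03e-09). Next came Rgcc, a regulator of the cell cycle (2.61 ± 0.13), and Slc24a3, a sodium and calcium exchanger (2.60 ± 0.14). Fgf10, a growth factor that stromal cells pass to epithelium, went from 6.39, 6.36 and 6.41 to 8.80, 8.88 and 8.77 (5.38-fold, 2.43 ± 0.11), and both its other probes rose too (2.44 and 0.44). Its main receptor gene, Fgfr2, rose as well on its brightest probe (2.18 ± 0.12), with the other probes at 0.46 and 0.25, neither past the test. The sorting receptor gene Sort1 (2.39 ± 0.14) has 1 further probe that rose (2.18) and 1 that did not pass (-0.29).

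Rspo2, a secreted amplifier of Wnt signals, went from 7.66, 7.15 and 7.39 to 9.32, 9.82 and 9.86 (4.81-fold, 2.27 ± 0.18). The Notch target Hey1, a transcriptional repressor, went from 4.94, 5.47 and 4.85, detected on 2 of the 3 vehicle arrays, to 7.31, 7.29 and 7.09 (4.41-fold, 2.14 ± 0.16). In both genes every 64 h array was above every vehicle array, as the choice of the largest changes requires. The rest of the 15 largest increases were in Adamts9, a secreted metalloproteinase (2.23 ± 0.16, second probe at -0.08), Aoc3, an amine oxidase of vessels and fat (2.18 ± 0.13), the collagen-binding integrin gene Itga1 (2.13 ± 0.16), Palmd (2.12 ± 0.14), the small GTPase gene Rasl11a (2.10 ± 0.19), Npr3, the clearance receptor of natriuretic peptides (2.04 ± 0.14), and the orphan receptor gene Gpr176 (2.04 ± 0.13). The second probes of Itga1 and Rasl11a rose less (0.71 and 1.04). Of the other probes of Palmd, that at 1.94 passed the test and that at 0.15 did not. Of those of Npr3, the probes at 1.02 and 1.22 passed and those at 0.17 and 0.27 did not.

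The largest decreases were in the proliferins, prolactin-like hormones of the placenta that growth factors induce in cultured mouse fibroblasts. Prl2c4 fell from 11.80, 11.79 and 11.57 to 8.62, 8.56 and 8.72, 8.47-fold lower (-3.08 ± 0.12, adjusted p = 1.03e-09). Prl2c3 (-3.01 ± 0.13), Prl2c2 (-2.95 ± 0.13) and Prl2c1 (-2.70 ± 0.22, detected on 1 of 3 arrays at 64 h) fell with it. The 4 genes belong to 1 family, and the sequences of their probes could not be compared here. Each probe may read transcripts of several of them, so their values are uncertain as values of single genes.

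Aqp1, the water channel gene, fell from 12.33, 12.47 and 12.36 to 9.83, 9.55 and 9.81 (6.31-fold lower, -2.66 ± 0.13), and its other probes fell alike (-2.92 and -2.66). Timp3, a matrix-bound inhibitor of metalloproteinases, fell from 12.73, 12.41 and 12.41 to 9.97, 9.94 and 10.05 (5.77-fold lower, -2.53 ± 0.13), with its second probe at -3.16. The arrays of the 2 groups were at least 2 log2 units apart in both genes. Prkg2, a kinase activated by cyclic GMP (-2.72 ± 0.15), the annexin gene Anxa8 (-2.20 ± 0.12) and Tafa5, which encodes a small secreted protein (-2.16 ± 0.14), also fell. So did the serine protease gene Klk8 (-2.18 ± 0.13) and the splicing regulator gene Rbfox1 (-1.92 ± 0.15), each detected on 1 of 3 arrays at 64 h. Tmem184a (-2.12 ± 0.14, second probe at -0.04), Ltbp1, which holds latent TGF-beta in the matrix (-2.00 ± 0.18, other probes at -1.12, 0.08 and 0.00), the zinc finger gene Zic4 (-1.92 ± 0.15) and Trem2, a lipid-sensing receptor of myeloid cells (-1.92 ± 0.12), completed the 15.

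**Figure D2:**
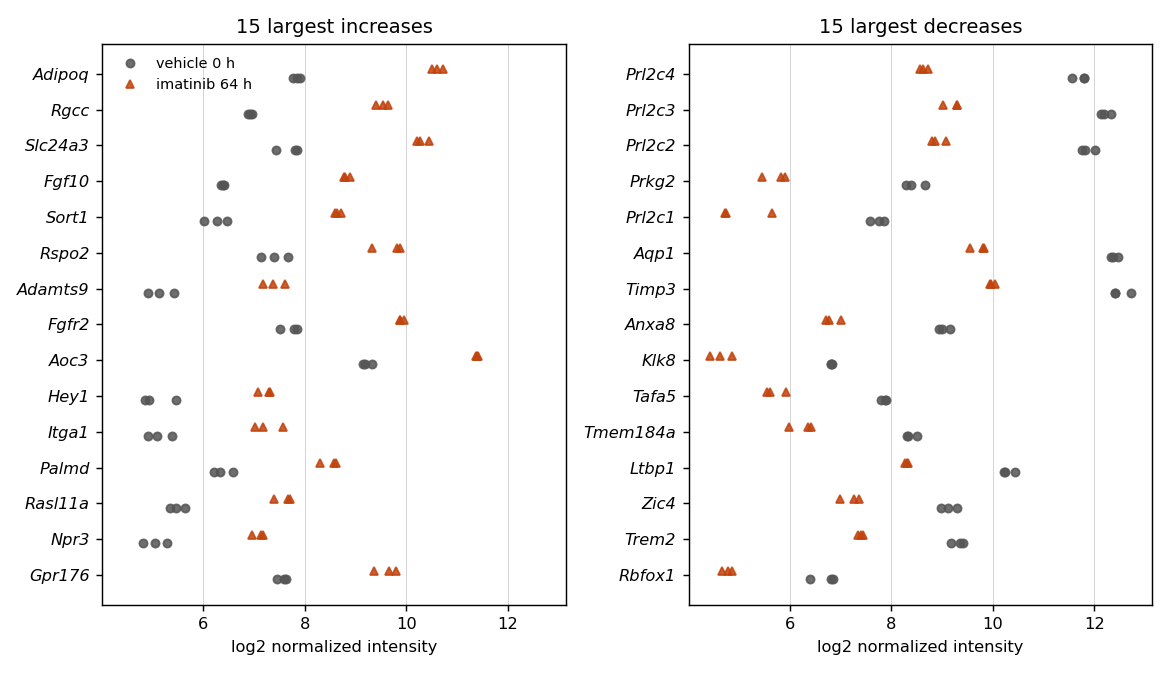
Log2 normalized intensity (x axis) on each of the 3 vehicle arrays (grey circles) and the 3 imatinib 64 h arrays (orange triangles) for the 15 largest increases and the 15 largest decreases. In each gene the groups are separate, as the choice of these genes requires. Levels of different genes come from different probes and are not comparable.

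Gene lists of 27 pathways were described by counts and medians. The lists were chosen with earlier results of these data known, so a share above that of all genes is only a description. Among haematopoietic niche factors, the secreted and membrane-bound signals by which stroma supports blood cells, 9 of 21 measured genes rose and 2 fell, 52.4% called against 12.4% of all genes, with a median of 0.21. Cxcl12 went from 12.14, 12.15 and 12.28 to 14.13, 14.29 and 14.19, a 4.03-fold increase (2.01 ± 0.11, adjusted p = 2.38e-08), and all 3 of its other probes rose (1.54 to 2.19). Il7 went from 7.31, 7.38 and 7.14 to 9.18, 9.22 and 9.28, a 3.87-fold increase (1.95 ± 0.12, adjusted p = 6.14e-08). In both genes the lowest 64 h array was more than 1.5 log2 units above the highest vehicle array. Fgf10 and the lymphatic growth factor gene Vegfc (1.88 ± 0.13, detected on 1 of 3 vehicle arrays) rose as well.

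Smaller increases in the same list were in the Notch ligand gene Jag1 (1.11 ± 0.15), Bmp4, a morphogen of the TGF-beta family (1.04 ± 0.12), the vessel-stabilising factor gene Angpt1 (0.98 ± 0.13) and Il15, a cytokine of natural killer and memory T cells (0.74 ± 0.14). Il6 was at 0.74 ± 0.23 (adjusted p = 0.0475), its arrays overlapped between the groups, and it did not pass when any 1 of 9 arrays was left out (adjusted p up to 0.203). The 2 members that fell were the heparin-binding factor gene Ptn (-1.45 ± 0.20) and the B-lymphopoietic cytokine gene Tslp (-0.91 ± 0.18), each detected on 1 of 3 arrays at 64 h. The stem cell factor gene Kitl did not pass (0.21 ± 0.18, adjusted p = 0.499), and neither did the adhesion gene Vcam1 (-0.02 ± 0.15, adjusted p = 0.964). For both, the arrays of the 2 groups overlapped. Csf1, Igf1, Fgf7, Icam1, Vegfa and Dll1 did not pass either (-0.12 to 0.24), although the second probe of Vegfa rose (0.79). Over both groups of array label 2 against both of label 1, 4 of the 21 niche factors were higher and 0 lower, where 0.637% of all genes were higher. At 96 h, on label 1, 8 were higher and 3 lower than in vehicle.

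Of 18 vascular and fibroblast growth factor genes, 6 rose and 1 fell (38.9% called against 12.4% of all genes, median 0.21). Beside Fgf10, Fgfr2, Vegfc and Angpt1, the semaphorin and VEGF co-receptor gene Nrp1 rose (0.76 ± 0.12), and Hgf, which encodes hepatocyte growth factor, was at 0.51 ± 0.13 (adjusted p = 0.0169, and up to 0.0777 with 1 array left out). Pdgfc, a ligand of the PDGF receptors, fell (-1.18 ± 0.12), although its second probe was at 0.06. In the Notch list Hey1 and Jag1 rose and none of 11 fell (18.2% called, median 0.17), and the target Hes1 was at 0.33 ± 0.22 (adjusted p = 0.38). In the Wnt list 4 of 17 rose and none fell (23.5%, median 0.13): Rspo2, the receptor gene Fzd5 (1.27 ± 0.14), the secreted Wnt-binding factor gene Sfrp1 (0.90 ± 0.14) and Rspo3, which was not detected on any vehicle array and was at least 1.45-fold higher. The second probe of Sfrp1, at 0.50, did not pass. Among 23 genes of the BMP and TGF-beta pathway 5 rose and 2 fell (30.4%, median 0.11). Bmp4, the ligand gene Tgfb3 (1.04 ± 0.16), the BMP target Id4 (0.87 ± 0.14) and the activin antagonist gene Fst (0.71 ± 0.12) rose, and Ltbp1 and Ltbp3 (-0.66 ± 0.14) fell. Tgfb2 was at 0.65 ± 0.17 (adjusted p = 0.0189, and up to 0.0631 with 1 array left out).

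Of the kinases and other proteins that imatinib binds, 6 were measured, and Abl1, Abl2 and Kit did not pass the detection filter. The PDGF receptor genes did not pass the test: Pdgfrb was at 7.73, 7.63 and 7.16 in vehicle and 7.77, 7.30 and 7.93 at 64 h (0.16 ± 0.20, adjusted p = 0.683), and Pdgfra at 0.08 ± 0.16 (adjusted p = 0.811). Their arrays overlapped between the groups. Ddr2 (-0.13 ± 0.14) and Csf1r (-0.15 ± 0.20) did not pass either. The collagen receptor gene Ddr1 was at 0.65 ± 0.18 (adjusted p = 0.0284) and the quinone reductase gene Nqo2 at -0.42 ± 0.12 (adjusted p = 0.0348). Ddr1 lost the call without vehicle replicate 1 or 2 or 64 h replicate 2 or 3 (adjusted p up to 0.12), its second probe was at 0.01, and Nqo2 lost it without any 1 of the 6 arrays (up to 0.127).

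Genes that receptor tyrosine kinases and the kinase ERK switch on fell in part: 10 of 25 measured were lower and 0 higher, 40% called against 12.4% of all genes, with a median of -0.43. Ccnd1, which encodes the cyclin D1 that carries cells into S phase, fell from 13.47, 13.46 and 13.43 to 12.43, 12.39 and 12.41 (2.07-fold lower, -1.05 ± 0.12), and its other probes fell too (-1.36 and -0.92). The 3 arrays of each group were nearly identical and the groups were apart. The chromatin protein gene Hmga2 (-1.52 ± 0.17), the ETS factor gene Etv1 (-1.03 ± 0.15), the AP-1 gene Jun (-1.01 ± 0.12), the urokinase receptor gene Plaur (-0.998 ± 0.147) and the feedback inhibitor genes Spred1 (-0.92 ± 0.13) and Dusp6 (-0.63 ± 0.14) fell. The other 3 called members were the early response gene Ier3 (-0.66 ± 0.14), the AP-1 gene Junb (-0.53 ± 0.16) and the ETS factor gene Etv4, which no 64 h array detected and which was at least 1.36-fold lower. Etv4 lost the call without vehicle replicate 3 (adjusted p = 0.0589), and Junb without any 1 of 8 arrays (up to 0.136). The early response genes Fos, Egr1 and Fosb and the feedback genes Spry2, Spry4 and Dusp4 did not pass (-0.25 to 0.36).

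Part of the cell cycle genes were lower at 64 h. Of 34 DNA replication genes 9 fell and 0 rose (26.5% called against 12.4% of all genes, median -0.30), 7 without 64 h replicate 3. Cdt1, which licenses replication origins, fell from 8.47, 8.65 and 8.57 to 7.56, 7.55 and 7.23 (2.17-fold lower, -1.11 ± 0.15). The thymidine kinase gene Tk1 (-0.74 ± 0.16), the helicase genes Mcm2 (-0.69 ± 0.12) and Mcm5 (-0.58 ± 0.12) and the maintenance methylation factor gene Uhrf1 (-0.57 ± 0.12) fell with it, each by under 2-fold. Lig1, Rfc2, E2f1 and Pold1 (-0.60 to -0.41) lost the call when 1 of several single arrays was left out (adjusted p up to 0.144).

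Of 22 genes of G2, M phase and mitosis 4 were lower and 0 higher (18.2% called, median -0.32). Birc5, which encodes survivin, fell from 8.82, 8.77 and 8.57 to 8.14, 8.05 and 8.01 (-0.66 ± 0.12), and both its other probes fell. Top2a, which untangles DNA before division, was at 7.62, 7.49 and 7.05 in vehicle and 6.74, 6.91 and 6.57 at 64 h (-0.65 ± 0.16, adjusted p = 0.0142). The checkpoint gene Bub1b (-0.48 ± 0.12) and the centromere histone gene Cenpa (-0.47 ± 0.13) also passed. The second probe of Bub1b, at -0.12, did not pass. Without vehicle replicate 1, vehicle replicate 2 or 64 h replicate 3 the count was 2, 1 and 2, as Top2a, Bub1b and Cenpa each lost the call without some arrays (adjusted p up to 0.0969).

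The cell cycle lists moved with the array label, and the part of the label in these decreases cannot be told apart from that of the group. The median of the replication list was -0.34 at 32 h (array label 2), -0.30 at 64 h (array label 2) and -0.05 at 96 h (array label 1), each against the same vehicle arrays. For G2 and M phase genes the medians were -0.33, -0.32 and -0.01. Over both groups of label 2 against both of label 1, 7 replication and 8 G2 and M phase genes were lower and 0 higher, where 85 of all 10211 genes (0.832%) were lower. Directly between 64 h and 96 h none of either list passed, but most members were lower at 64 h. The median difference was -0.28 for replication genes (27 of 34 lower) and -0.33 for G2 and M phase genes (21 of 22 lower). Cdt1 was 0.74 below vehicle on the log2 scale at 96 h as well, where it passed the test.

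**Figure D3:**
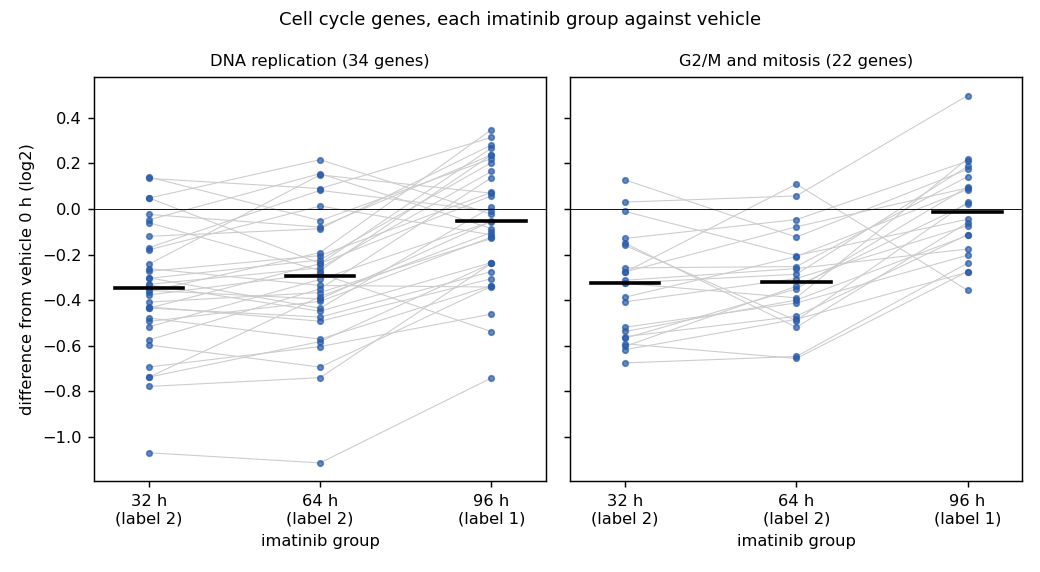
Log2 difference from vehicle 0 h (y axis) of each measured gene at 32, 64 and 96 h of imatinib (x axis), with grey lines joining a gene and black bars at the median. The medians lie near -0.3 on the arrays of label 2 and near 0 at 96 h, on label 1, and the 3 comparisons share the vehicle arrays.

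Sequences before the gene start are shown for 1 replication and 1 mitosis gene because these lists moved together. E2F factors, which time replication genes, bind motifs such as TTTCCCGC and TTTGGCGC, searched here on both strands over 250 bases. Of 27 measured replication genes with a promoter in RefSeq (GRCm38.p6), 5 hold 1 of them (18.5%), against 228 of 8321 genes tested (2.74%), and of the 8 that fell 1 does, Mcm5. The CCAAT box, bound by NF-Y and frequent before mitosis genes, was searched as CCAAT on both strands. It is in 14 of 17 G2 and M phase genes (82.4%) and in 3403 of 8321 genes tested (40.9%). A match is only a match of letters. In Mcm5 capitals mark the E2F motif and in Top2a the CCAAT boxes (on the opposite strand the E2F motif reads GCGCCAAA and the CCAAT box ATTGG), and the CCAAT boxes of Mcm5 are left in lower case. The window of Mcm5 is chr8:75109259-75109508, plus strand, with 141 bases between the E2F motif and the gene start. That of Top2a is chr11:99024190-99024439, minus strand, with 6 CCAAT boxes.
Mcm5: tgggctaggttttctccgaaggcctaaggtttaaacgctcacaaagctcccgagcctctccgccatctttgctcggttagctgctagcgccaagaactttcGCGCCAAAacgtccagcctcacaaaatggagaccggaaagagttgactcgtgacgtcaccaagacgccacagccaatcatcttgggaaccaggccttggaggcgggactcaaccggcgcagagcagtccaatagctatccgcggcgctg
Top2a: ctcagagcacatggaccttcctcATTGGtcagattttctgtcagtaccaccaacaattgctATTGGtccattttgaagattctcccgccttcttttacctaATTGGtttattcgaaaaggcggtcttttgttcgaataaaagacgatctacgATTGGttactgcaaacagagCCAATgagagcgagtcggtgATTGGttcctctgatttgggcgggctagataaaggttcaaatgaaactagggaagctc

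Of 23 genes of D cyclins, CDK inhibitors and p53 targets, 4 rose and 1, Ccnd1, fell (21.7% called, median 0.08). The stress-responsive growth arrest gene Gadd45a rose (1.03 ± 0.14), with its second probe at 1.25. The CDK4 inhibitor gene Cdkn2b rose from 11.38, 11.40 and 11.45 to 11.90, 11.90 and 11.93 (0.50 ± 0.11, adjusted p = 0.00684), a small step. Its arrays did not overlap, as in 32.3% of all genes. At 96 h, on the array label of vehicle, Cdkn2b was at 0.15 and did not pass (adjusted p = 0.433). The test of 64 h against 96 h did not pass either (adjusted p = 0.214). Gadd45b (0.91 ± 0.22) and Gadd45g (0.58 ± 0.13) lost the call without vehicle replicate 1, where the count was 2 (adjusted p up to 0.0658).

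Contractile genes rose in part: 7 of 25 genes of the actomyosin apparatus and targets of SRF and YAP were higher and 1 was lower (32% called, median 0.18). Actg2, smooth muscle actin gamma, went from 10.22, 10.20 and 10.11 to 11.52, 11.14 and 11.51 (2.32-fold, 1.21 ± 0.13). Tropomyosin Tpm1 (0.96 ± 0.11), the regulatory myosin light chain gene Myl9 (0.95 ± 0.13) and the actin-bundling gene Tagln (0.88 ± 0.13) rose by a little under 2-fold. Lmod1 (0.72 ± 0.20), the focal adhesion gene Vcl (0.51 ± 0.13) and the YAP partner gene Tead1 (0.44 ± 0.11) lost the call when 1 of several single arrays was left out (adjusted p up to 0.113), and the count was 4 without vehicle replicate 2. The receptor tyrosine kinase gene Axl, a YAP target, fell (-0.75 ± 0.11).

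The CArG box is the site of SRF, and the promoters of 2 genes that hold it are shown with the box in capitals. It was found in the 250 bases before 4 of 21 measured genes of this list (19%), which names SRF targets, and before 122 of 8321 genes tested (1.47%). Of the 5 called members with a promoter in RefSeq, 2 hold it. In Myl9 (chr2:156775214-156775463, plus strand, GRCm38.p6) 151 bases lie between the box and the gene start, and in Vcl (chr14:20929148-20929397, plus strand) 217 bases.
Myl9: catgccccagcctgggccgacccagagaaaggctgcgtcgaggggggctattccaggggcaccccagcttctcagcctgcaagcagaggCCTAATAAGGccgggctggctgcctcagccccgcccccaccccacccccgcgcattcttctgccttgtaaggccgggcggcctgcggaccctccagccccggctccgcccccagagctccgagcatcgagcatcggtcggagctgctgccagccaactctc
Vcl: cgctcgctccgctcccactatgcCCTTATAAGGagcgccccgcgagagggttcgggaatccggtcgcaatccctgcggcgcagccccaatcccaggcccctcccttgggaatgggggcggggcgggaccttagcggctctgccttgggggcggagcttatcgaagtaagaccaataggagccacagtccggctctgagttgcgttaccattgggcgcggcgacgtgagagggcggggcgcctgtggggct

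The extracellular matrix list moved both ways, with 9 of 31 genes higher and 5 lower (45.2% called, median 0.06). Nid2, a basement membrane linker, went from 6.26, 6.28 and 6.22 to 7.83, 7.88 and 7.89 (3.06-fold, 1.62 ± 0.11). The matricellular protein gene Thbs1 (1.30 ± 0.16), the collagen cross-linker gene Lox (0.79 ± 0.13), the fibrillar collagen gene Col3a1 (0.68 ± 0.11) and the basement membrane collagen gene Col4a1 (0.61 ± 0.14) rose. Col5a2, Col4a2, Col8a1 and Thbs2 passed at 0.44 to 0.68 and lost the call when 1 of several single arrays was left out (adjusted p up to 0.111). Col18a1, the source of endostatin, fell from 9.90, 9.80 and 10.08 to 8.10, 8.02 and 8.02 (3.68-fold lower, -1.88 ± 0.14), although its second probe, at -0.14, did not pass. The fibulin gene Fbln2 (-1.21 ± 0.12), the lysyl oxidase relative Loxl3 (-1.07 ± 0.19), the fibronectin gene Fn1 (-1.03 ± 0.12, other probes -1.24 to -0.49) and Col16a1 (-0.95 ± 0.11) fell. Of the other probes of Fbln2, that at -1.51 passed and that at -0.44 did not.

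Regulators of matrix breakdown changed in 10 of 17 measured genes (58.8%), 4 higher and 6 lower. Inhibitors of metalloproteinases were lower: Timp3, then Timp1, which fell from 13.05, 13.26 and 13.15 to 11.65, 11.63 and 11.49 (2.95-fold lower, -1.56 ± 0.12), and Timp2 (-0.51 ± 0.11). The plasminogen activator genes Plat (-1.24 ± 0.18) and Plau (-0.90 ± 0.17) and the receptor gene Plaur fell as well. The proteases Adamts1 (1.69 ± 0.16, second probe 0.29 and not past the test) and Mmp13, a collagenase detected on 2 of 3 vehicle arrays (1.25 ± 0.20, second probe 0.18 and not past the test), rose. Adam12 and Adamts4 (0.70 and 0.57) lost the call when 1 of several single arrays was left out (adjusted p up to 0.101), and the count of increases was 2 without vehicle replicate 3 or 64 h replicate 1. Among integrins and proteins of focal adhesions 3 of 15 genes were higher and 4 were lower (46.7%). The collagen-binding integrin genes Itga1 and Itga2 rose, Itga2 by at least 1.23-fold as it was not detected on any vehicle array. The laminin-binding integrin gene Itga3 (-1.46 ± 0.18, detected on 1 of 3 arrays at 64 h) and Itgb5 (-0.58 ± 0.13) fell. Itga11, also called, lost the call without vehicle replicate 3 or 64 h replicate 2 (adjusted p up to 0.0645). Itga5 lost it without vehicle replicate 2 (adjusted p = 0.0517).

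**Figure D4:**
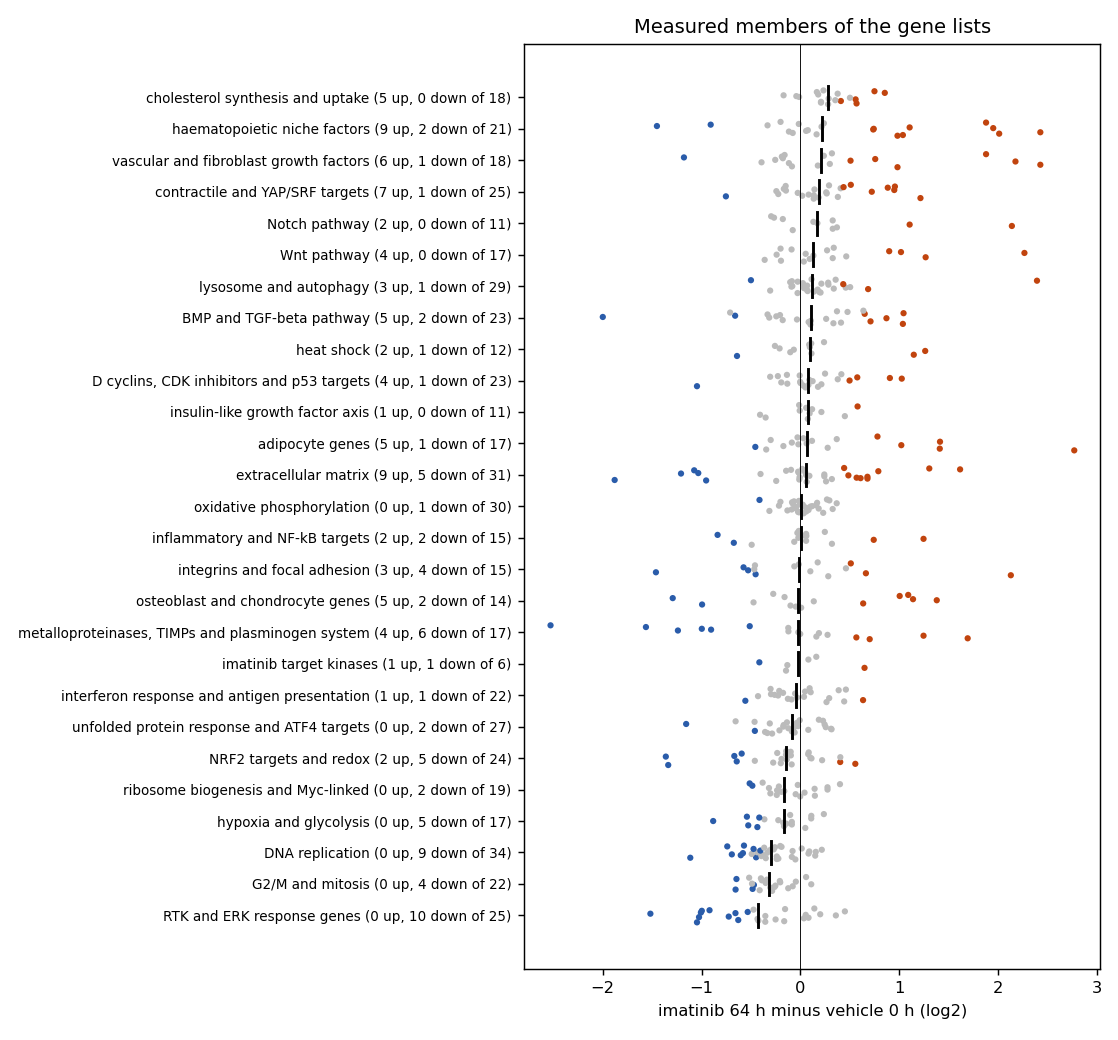
Each point is the 64 h minus vehicle difference (x axis, log2) of 1 measured gene of a list, orange where higher, blue where lower and grey where not past the test, and the black bar is the median of the list. The lists are ordered by median, from response genes of receptor tyrosine kinases and ERK (-0.43) to cholesterol synthesis (0.28), beside 0.0017 over all genes.

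Fat cell genes rose in part: 5 of 17 were higher and 1 was lower (35.3% called, median 0.06). Beside Adipoq, the lipoprotein lipase gene Lpl went from 12.09, 11.88 and 12.05 to 13.48, 13.28 and 13.49 (2.66-fold, 1.41 ± 0.12). The triglyceride enzyme gene Dgat1 rose (1.02 ± 0.14), and the fatty acid uptake gene Cd36 was at least 2.09-fold higher, as no vehicle array detected it. Scd2 (0.78 ± 0.22) and the early adipogenic factor gene Cebpb (-0.46 ± 0.11) lost the call when 1 of several single arrays was left out (adjusted p up to 0.121). Pparg, the master regulator of fat cells, was at 0.03 and Cebpa at 0.28 (adjusted p = 0.936 and 0.548), and Fabp4 and Plin1 did not pass the detection filter. Of 14 bone and cartilage genes 5 rose and 2 fell (50% called, median -0.02). The bone matrix proteoglycan gene Ogn (1.38 ± 0.14, other probes 1.75 and 1.81), Omd (1.14 ± 0.16), the osteoclast decoy receptor gene Tnfrsf11b (1.09 ± 0.15), the osteoblast factor gene Sp7 (1.00 ± 0.12) and the cartilage matrix gene Comp (0.64 ± 0.13) rose. The cartilage genes Sox5 (-1.29 ± 0.12, all 5 other probes lower) and Col2a1 (-0.995 ± 0.11, both other probes lower) fell.

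Cholesterol synthesis and uptake genes had a median of 0.28, with 5 of 18 higher and 0 lower (27.8% called). The squalene epoxidase gene Sqle (0.85 ± 0.13, second probe 0.35 and not past the test) and the sterol carrier gene Stard4 (0.75 ± 0.14) rose. Dhcr7, Insig1 (other probes at -0.15 and 0.02) and Hsd17b7 (0.41 to 0.57) each lost the call when 1 of several single arrays was left out (adjusted p up to 0.116), and the count fell to 2 without vehicle replicate 2 and 3 without vehicle replicate 3, 64 h replicate 1 or 64 h replicate 2. At 32 h (array label 2) and 96 h (array label 1) the medians against vehicle were both 0.19, with 4 and 2 of the 18 higher. Over both groups of label 2 against both of label 1, 2 of the 18 were higher and 0 lower, where 0.637% of all genes were higher. The part of the label cannot be told apart from that of the group. Of 17 hypoxia and glycolysis genes 5 were lower and 0 higher (29.4% called, median -0.17): Pdk1, Pkm, Hk1, Aldoa and Pgk1 (-0.88 to -0.42). Pdk1, Hk1, Aldoa and Pgk1 lost the call when 1 of several single arrays was left out (adjusted p up to 0.0876), and the count was 1 without 64 h replicate 2 and 3 without vehicle replicate 1 or 2. The second probes of Pkm (0.42) and Hk1 (-0.31) did not pass.

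Among NRF2 targets, the genes of the response to oxidants, 5 of 24 fell and 2 were higher (29.2% called, median -0.14). The quinone reductase gene Nqo1 went from 8.11, 7.90 and 8.08 to 6.63, 6.61 and 6.77 (2.57-fold lower, -1.36 ± 0.13), and the aldehyde dehydrogenase gene Aldh3a1 from 10.32, 10.29 and 10.21 to 8.86, 8.84 and 9.11 (2.53-fold lower, -1.34 ± 0.13). Srxn1 (-0.59 ± 0.11) and Gsta1, at least 1.26-fold lower, also fell, and Osgin1 (-0.67 ± 0.15) lost the call without vehicle replicate 2 (adjusted p = 0.0527). Of the other probes of Srxn1, that at -0.89 passed and that at -0.26 did not. The 2 members that passed upwards, Gclm and Gpx3 (0.56 and 0.40), lost the call when 1 of several single arrays was left out, 64 h replicate 3 among them (adjusted p up to 0.157). Of 12 heat shock genes, Hspa1b (1.26 ± 0.14) and the small heat shock gene Cryab (1.15 ± 0.21) rose and the co-chaperone gene Bag3 fell (-0.64 ± 0.11), 25% called.

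Of 30 genes of oxidative phosphorylation 1 passed (3.33% called, median 0.01), of 27 genes of the unfolded protein response and ATF4 2 fell (7.41%), among them Phgdh of serine synthesis (-1.16 ± 0.20), and of 22 interferon and antigen presentation genes 1 rose and 1 fell (9.09%), shares below the 12.4% of all genes. Of 29 lysosome and autophagy genes 3 rose and 1 fell, 13.8% called and close to the 12.4% of all genes. Those that rose were Sort1, the collagen-degrading protease gene Ctsk (0.69 ± 0.12) and Lamp2 (0.43 ± 0.11, adjusted p up to 0.0664 with 1 array left out). Of the other probes of Lamp2, that at 0.47 passed and those at 0.22, 0.05 and -0.03 did not. The autophagy receptor gene Sqstm1 passed downwards (-0.50 ± 0.13, adjusted p = 0.0248, and up to 0.0936 with 1 array left out). In the insulin-like growth factor axis the IGF-binding protein protease gene Pappa rose (0.58 ± 0.12), 1 of 11 (9.09%). Of 15 inflammatory genes, the NF-kB cofactor gene Nfkbiz (-0.84 ± 0.18) and the chemokine gene Ccl9 (-0.67 ± 0.14) fell, and Mmp13 and Il6 passed upwards (26.7% called, median 0.0051). Of 19 ribosome biogenesis genes 2 passed downwards, Srm and Ppan (10.5% called). The count was 0 without vehicle replicate 1 or 2, any 1 of the 96 h arrays, or 64 h replicate 2 or 3. It was 1 without vehicle replicate 3 or 32 h replicate 3. The second probe of Ppan, at -0.21, did not pass.

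The place of the 64 h levels between 32 h and 96 h was read from the same fit. In all 15 of the largest increases and all 15 of the largest decreases, the mean at 32 h lay between vehicle and 64 h. Tests of 64 h against 32 h, both on array label 2, passed for 28 of these 30 genes, and for 14 with replicate 3 of both times left out. These genes were picked for their change from vehicle at 64 h, which favours a mean at 32 h short of that at 64 h. Their 64 h levels enter that test too. Over both groups of label 2 against both of label 1, Adipoq, Rgcc, Slc24a3, Fgf10, Adamts9, Fgfr2 and Aoc3 were higher (0.45 to 0.92). Prkg2, Prl2c1, Klk8, Tafa5, Ltbp1 and Rbfox1 were lower (-0.70 to -0.40). The rest of the 30 did not pass, and of all genes 0.637% were higher and 0.832% lower. The part of the label cannot be told apart from that of the group. Over all genes, 67 (0.656%) were higher and 59 (0.578%) lower at 64 h than at 32 h, and 14 (0.137%) higher and 12 (0.118%) lower than at 96 h. Against vehicle, Il7 was 1.34, 1.95 and 2.39 higher at 32, 64 and 96 h on the log2 scale, Cxcl12 1.15, 2.01 and 2.18, and Adipoq 1.74, 2.77 and 3.04, from shared vehicle arrays.

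**Figure D5:**
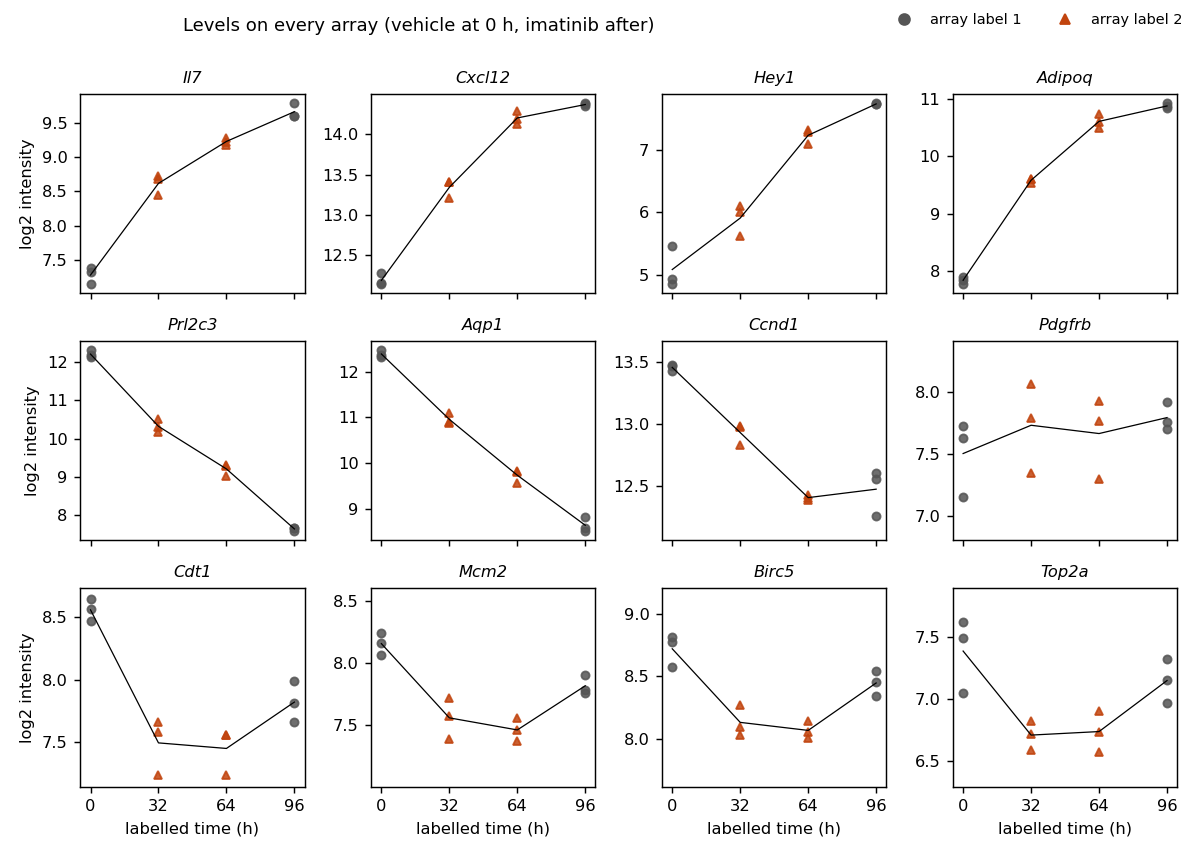
Log2 normalized intensity (y axis) of 12 genes on all 12 arrays by labelled time in hours (x axis), vehicle at 0 and imatinib after, with a line through the group means and the array label as colour and shape. The group means of Il7, Cxcl12, Hey1 and Adipoq are higher and those of Prl2c3 and Aqp1 lower at each later time, Pdgfrb overlaps throughout, and Cdt1, Mcm2, Birc5 and Top2a are lowest at 32 and 64 h, the times on array label 2.

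For 1 gene called against vehicle, 64 h was also beyond both other times with both tests passed. Bcdin3d, an RNA methyltransferase gene, was at 5.23, 5.29 and 5.45 in vehicle and 4.66, 4.59 and 4.44 at 64 h, where no array detected it. It was at least 1.42-fold lower than in vehicle (-0.76 ± 0.12, adjusted p = 0.000461). The test against 96 h (adjusted p = 0.0485) did not pass when any 1 of the 12 arrays was left out.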

How the data were processed

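Total RNA of OP9 cells was read on 12 Illumina BeadChip arrays. Per the file headers, the deposited probe intensities are not normalized and each has a detection p-value. By their values they are linear, with background left in. The authors also deposited normalized intensities, and the submitters' processing notes name limma. How the scanner output was made is not stated in the labels. Values were recomputed in R 4.3.3 with limma 3.58.1 (data.table version 1.17.8): neqc with background from the detection p-values, offset 16, quantile normalization of all 12 arrays and log2. They differed from the deposited values by at most 0.0193.

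Probes with detection p under 0.05 on at least 3 arrays were kept (18897 of 45281). A gene was its brightest kept probe with 1 symbol, updated through the Entrez ID (RefSeq, GRCm38.p6). The 4 groups were fitted together on all 12 arrays with moderated variances (8 residual degrees of freedom), and p-values were adjusted over kept probes by the Benjamini-Hochberg method. Changes are log2 differences ± SE of the fit. Against a group where no array detected the gene, the fold is a bound ("at least"), taken, array by array, against the higher of the gene's own level and the dimmest detected probe. The fit was tested on simulated data.

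The members and lists were chosen with earlier results of these data known, so counts of a list are descriptions. No set test was run. Named were the 15 largest increases and decreases among called genes with separate groups, detected on all 3 arrays of the higher group; up to 4 members of each list by smallest p; measured imatinib targets; Il7, Cxcl12, Kitl, Vcam1 and Hes1; and genes beyond both other times. Other list members that passed, and markers, were named after their values were seen. Predicted transcripts were left out. Of 711 pathway list genes, 521 were measured, 141 did not pass the filter and 49 were not analysed here.

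As alternatives, the background was left in, arrays were scaled to their medians, each array label was normalized by itself, the fit was run on 6 arrays, the filter was dropped or made strict (every array of at least 1 group detected with p under 0.01), the offset was 50, and variances were trended and robust. Others were treat at 1.5-fold, the replicate block, the deposited normalized values, averaging over the probes of a gene, and each array left out. Chosen only after seeing the data were array weights and leaving out replicate 3 of both 32 h and 64 h. Plots used matplotlib 3.10.9 under Python 3.11.15.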

Additional observations from a re-analysis of the deposited data

Results flagged for a closer look

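Of the 132 genes chosen by the naming rule, 42 had a level at 64 h that differed from that at 32 h by a test of this difference (limma, adjusted p under 0.05), and 20 of them passed with replicate 3 of both times, the arrays that stood apart, left out. Both groups carry array label 2. The genes higher at 64 h, as log2 differences between these times, were Hey1 1.32, Vegfc 1.22, Fgf10 1.16, Rspo2 1.15, Rasl11a 1.14, Itga1 1.09, Adipoq 1.03, Sort1 1.02, Adamts9 0.96, Fgfr2 0.93, Rgcc 0.92, Gpr176 0.90, Cxcl12 0.86, Npr3 0.84, Palmd 0.79, Nid2 0.77, Fzd5 0.70, Lpl 0.67, Aoc3 0.67, Slc24a3 0.66, Sp7 0.63 and Il7 0.61. The genes lower at 64 h were Klk8 -1.42, Timp3 -1.33, Aqp1 -1.22, Col18a1 -1.17, Prl2c3 -1.12, Trem2 -1.06, Tmem184a -1.01, Aldh3a1 -0.97, Prl2c2 -0.96, Ltbp1 -0.92, Prl2c4 -0.92, Anxa8 -0.92, Prkg2 -0.84, Bcdin3d -0.80, Tafa5 -0.79, Pdgfc -0.76, Zic4 -0.76, Timp1 -0.73, Fbln2 -0.67 and Jun -0.62. Of these calls, 13 were lost when 1 of the arrays was left out, among them those of Il7 (adjusted p up to 0.105), Slc24a3 (0.132), Fzd5 (0.141), Sp7 (0.116), Zic4 (0.126) and Ltbp1 (0.078). Most of the 132 genes were picked by their 64 h against vehicle values, and the same 64 h arrays enter this test. Over all genes, 67 (0.656%) were higher and 59 (0.578%) lower at 64 h than at 32 h.

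Of the genes chosen by this rule, 10 had a level at 64 h that differed from that at 96 h, across array labels, and 8 passed without both arrays that stood apart. Higher at 64 h were Prl2c2 1.70, Prl2c3 1.57, Prl2c4 1.497, Aqp1 1.10, Trem2 0.94, Prkg2 0.85 and Anxa8 0.79. Lower at 64 h were Rspo3 -0.99, Sort1 -0.97 and Bcdin3d -0.60. The calls of Sort1, Prkg2, Anxa8, Rspo3 and Bcdin3d were lost when 1 of the arrays was left out (adjusted p up to 0.056, 0.128, 0.0713, 0.101 and 0.165). Here too the 64 h arrays enter both the choice of most genes and the test. Over all genes, 14 (0.137%) were higher and 12 (0.118%) lower at 64 h than at 96 h.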

How the results depend on the processing

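Over the 26 other settings the counts stayed within 1.5 times of 646 higher and 621 lower, except in the test for a change of at least 1.5-fold (limma's treat), which called 87 higher and 65 lower. Leaving out 1 array gave 461 to 651 higher and 446 to 629 lower. Deviations of same-numbered vehicle and 64 h arrays from their group means correlated at 0.00523, -0.0175 and 0.0204. These values cannot show whether the samples were paired. With the replicate number as a block 610 genes were higher and 600 lower. Under the block, Il6 and Ppan lost the call and no other gene chosen by the naming rule did. Normalizing each array label on its own gave 538 higher and 776 lower and moved the median of all genes to -0.0427. Of the 110 called genes among those chosen by the naming rule, 0 reversed, 60 did not pass treat and 20 lost the call under another setting, 19 of them without 1 array. With the mean of a gene's probes Pkm did not pass (adjusted p = 0.764). The number of arrays limits the precision (median SE 0.152), and the vehicle label of 0 h, the array label and the drug cannot be told apart here.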
